A study of Mus musculus with 4 samples.

Results

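Langerhans cells are the antigen-presenting cells of the epidermis, and their lysosomes degrade what they take up. The messenger RNAs of 45 lysosomal genes were followed here in these cells: 22 genes for hydrolases and other proteins of the lysosomal lumen, 8 for membrane proteins, and 15 for the vacuolar proton pump (V-ATPase) and its accessory proteins. The members were picked by name from the 24441 gene symbols of the expression tables, with cathepsins left out, and all 45 were found, each at 1 locus. RNA sequencing had been done on Langerhans cells sorted out of epidermal suspensions from mice aged 4 weeks. WT mice were compared with CD11cCreTfamfl/fl mice (Tfam cKO), which carry floxed alleles of Tfam, the gene of a mitochondrial DNA-packaging and transcription factor, and a Cre recombinase driven by CD11c. There were 2 libraries per group, which the labels number 1 and 2. Whether WT mice carried Cre or floxed alleles and how many mice gave each library is not stated, so the spread behind each p-value is that of these libraries alone and may be technical. In sorted cells, fewer expressing cells and less RNA per cell cannot be told apart.

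Lysosomal hydrolases work in an acidic lumen. The V-ATPase makes it acidic: its cytosolic V1 sector splits ATP, and its membrane-embedded V0 sector carries the protons across. Heavily glycosylated membrane proteins such as LAMP1 and LAMP2 line the organelle, and transporters and channels move the products of digestion and ions over its membrane. Many of these genes are known targets of the transcription factor TFEB and its relatives, which bind an extended E-box. In antigen-presenting cells the same compartment trims proteins into peptides for MHC class II.

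Expression was listed as FPKM, fragments per kilobase of transcript relative to all mapped fragments, a scale per length on which genes can be set side by side. Sequencing depth is not given, and Cufflinks' 95% intervals correspond to between 107 and 8234 effective fragments, with a median of 875, for a member that was tested in a library. Relative to WT 1, WT 2 had 1.36 times the fragments per FPKM, Tfam cKO 1 had 0.884 times and Tfam cKO 2 had 1.54 times. The FPKM totals differed, from 338783 in WT 2 to 395707 in Tfam cKO 1. For Tfam itself the WT libraries had 3.17 and 1.61 FPKM, and those of Tfam cKO 1.65 and 1.53 FPKM. The library labelled WT 2 thus stood at the Tfam level of the Tfam cKO libraries, and every direction below rests on the labels. All 8 Langerhans cell markers looked for were present, with Cd207 (langerin) between 1374 and 2098 FPKM. RNA of other epidermal cells was present too. The 9 keratinocyte markers summed to 8060 to 12177 FPKM in WT and to 10524 to 11651 FPKM in Tfam cKO, and the 6 T cell markers to 286 to 353 and to 207 to 308 FPKM. The 10 macrophage markers summed to 133 to 141 FPKM in WT and to 179 to 261 FPKM in Tfam cKO, a gap that came mostly from the C1q chains, while Cd163, Folr2 and Fcgr1 were listed at 0 in all 4 libraries. Fibroblast markers summed to at most 1.07 FPKM and melanocyte markers to at most 5.40 FPKM in any library. The part of such cells in the member values was not tested.

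In these libraries, which also held RNA of other epidermal cells, most lysosomal members were listed above the median level of all tested genes. Of the 45 members, 44 reached 1 FPKM or more on average and were tested. Their median level was 29.7 FPKM, against 8.41 FPKM over all 10910 tested genes. The median was 17.6 FPKM for lumenal members, 45.3 FPKM for membrane proteins and 58.7 FPKM for the V-ATPase. The highest level belonged to Atp6v0c, the proteolipid that forms the rotating ring of the pump, with a mean of 288 FPKM over the 4 libraries. It was followed by Laptm5, a lysosomal membrane protein of blood cells, at 205 FPKM, Psap, the precursor of the saposins that help hydrolases reach sphingolipids, at 176 FPKM, Atp6v1f at 135 FPKM and Ifi30, a thiol reductase that opens disulphide bonds of antigens, at 131 FPKM. At the other end stood the glycan-degrading enzymes Manba (4.16 FPKM), Gaa (4.10 FPKM) and Naglu (4.07 FPKM). Galc, which removes galactose from myelin lipids, was the only member under the limit, at 0.450, 0.436, 0.255 and 0.419 FPKM in WT 1, WT 2, Tfam cKO 1 and Tfam cKO 2, with 11 effective fragments in Tfam cKO 1. The nearest member inside that limit was Naglu.

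**Figure D1:**
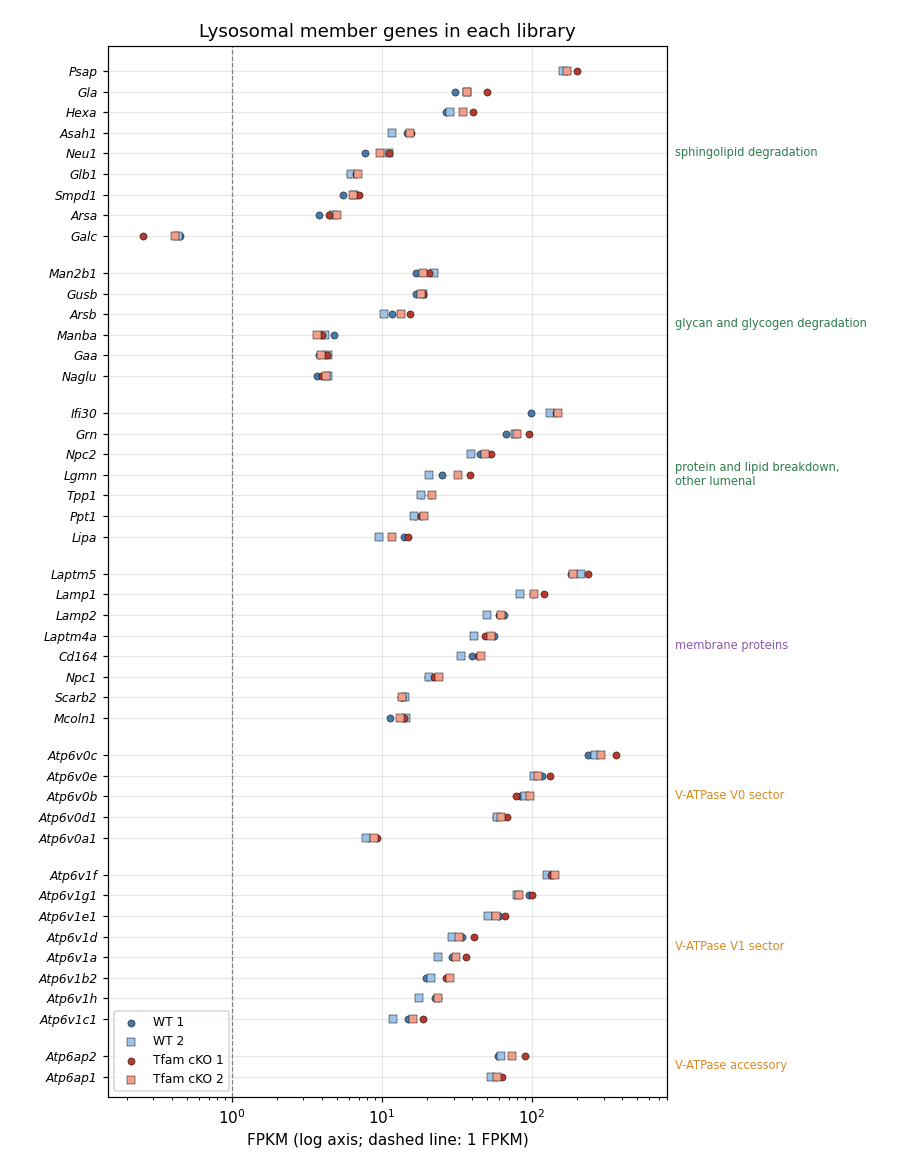
FPKM of the 45 member genes (log axis) in WT 1, WT 2, Tfam cKO 1 and Tfam cKO 2, grouped by role and ordered by mean level within each role. Levels run from Galc, below 1 FPKM in all 4 libraries, to Atp6v0c at 237 to 365 FPKM, and differences between genes are far wider than those between libraries.

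Subunits of one complex were listed at unequal levels. In the V0 sector, Atp6v0c (288 FPKM), Atp6v0e (115 FPKM) and Atp6v0b (87.1 FPKM) were above Atp6v0d1 (61.7 FPKM), and Atp6v0a1, the large subunit through which protons pass, was at 8.53 FPKM. Another form of that large subunit, Atp6v0a2, had a similar level, with 11.7 and 12.9 FPKM in WT and 13.8 and 14.1 FPKM in Tfam cKO, and the osteoclast form Tcirg1 had 3.03 to 5.28 FPKM. In the V1 sector the order ran from Atp6v1f (135 FPKM) and Atp6v1g1 (89.5 FPKM) through Atp6v1e1 (58.7 FPKM) and Atp6v1d (34.2 FPKM) to the catalytic subunit Atp6v1a (30.3 FPKM), its partner Atp6v1b2 (24.0 FPKM), Atp6v1h (21.8 FPKM) and Atp6v1c1 (15.4 FPKM). The tissue-restricted forms Atp6v0d2 and Atp6v1e2 were listed at 0 in all libraries, and Atp6v1b1, the kidney form of the B subunit, did not exceed 0.281 FPKM.

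An E-box was more frequent in the promoters of the members than in those of all genes, though most members lacked it. The members were picked by name, but many are known TFEB targets, so the higher share is not an independent result. RefSeq promoters (build GRCm38.p6, from 250 bases before to 50 bases after a gene's start) were at hand for 39 of the 45 members, and 36 of these had a single start. The E-box CACGTG, which reads the same on both strands, was found in 14 of the 39 (35.9%), against 8.09% of 27025 genes and 12.1% of the 8550 other genes tested in these libraries. All 14 also held the longer TCACGTG on one strand or the other, which 4.29% of all genes and 7.15% of the other tested genes have. The palindrome TCACGTGA was present in 7 members (17.9%), against 1.12% and 2.27%. Each longer motif contains the shorter ones, and a gene with several starts was counted once if any of its promoters matched. By class, CACGTG was found in 7 of 21 lumenal members, 3 of 7 membrane proteins and 4 of 11 V-ATPase genes. A match is a description of the sequence and does not show that a factor binds there.

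The 30 bases around the sites are shown because the motif recurs in them, except for the Lamp1 sites and 1 Mcoln1 site, which are given further on in longer stretches. Each runs 5′ to 3′ on the strand of its gene, with the longest of these motifs at that site in capitals. The first 8 lines hold the palindrome and the other 7 the 7-letter form.
Gla, chrX:134601215-134601244, minus strand: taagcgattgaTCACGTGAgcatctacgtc
Gla, chrX:134601182-134601211, minus strand: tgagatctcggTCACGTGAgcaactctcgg
Ifi30, chr8:70766842-70766871, minus strand: atccaaaaactTCACGTGAccagacatgct
Cd164, chr10:41519401-41519430, plus strand: cgccgggctgcTCACGTGAccggcgcgcgc
Mcoln1, chr8:3500462-3500491, plus strand: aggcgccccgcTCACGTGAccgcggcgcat
Atp6v0d1, chr8:105566050-105566079, minus strand: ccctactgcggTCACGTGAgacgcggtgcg
Atp6v0e, chr17:26676387-26676416, plus strand: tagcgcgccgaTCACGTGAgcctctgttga
Atp6v1a, chr16:44139373-44139402, minus strand: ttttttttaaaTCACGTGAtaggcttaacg
Lgmn, chr12:102439124-102439153, minus strand: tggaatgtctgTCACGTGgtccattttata
Glb1, chr9:114401018-114401047, plus strand: ctgcttctgagTCACGTGgcctacagaggc
Gaa, chr11:119267811-119267840, plus strand: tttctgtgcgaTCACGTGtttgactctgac
Naglu, chr11:101070009-101070038, plus strand: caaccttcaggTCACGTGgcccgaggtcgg
Arsa, chr15:89477423-89477452, minus strand: tcaactcagtgTCACGTGttgtctgctcct
Atp6v0b, chr4:117887348-117887377, minus strand: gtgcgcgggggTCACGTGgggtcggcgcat
Atp6v0b, chr4:117887330-117887359, minus strand: gggtcggcgcaTCACGTGcgccggtcaggt

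Some promoters held several sites. Lamp1 had 4, whose hexamers began 61, 45, 28 and 15 bases before the start, and Mcoln1, the gene of the lysosomal calcium channel mucolipin, had 2, at 71 and 45 bases. Their 250 bases before the start are shown to give the spacing, again 5′ to 3′ with the matches in capitals.
Lamp1, chr8:13158911-13159160, plus strand: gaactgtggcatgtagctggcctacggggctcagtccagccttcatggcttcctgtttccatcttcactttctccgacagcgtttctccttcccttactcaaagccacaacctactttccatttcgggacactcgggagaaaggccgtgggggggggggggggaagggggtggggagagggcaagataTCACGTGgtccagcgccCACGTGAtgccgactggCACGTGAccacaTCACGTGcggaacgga
Mcoln1, chr8:3500269-3500518, plus strand: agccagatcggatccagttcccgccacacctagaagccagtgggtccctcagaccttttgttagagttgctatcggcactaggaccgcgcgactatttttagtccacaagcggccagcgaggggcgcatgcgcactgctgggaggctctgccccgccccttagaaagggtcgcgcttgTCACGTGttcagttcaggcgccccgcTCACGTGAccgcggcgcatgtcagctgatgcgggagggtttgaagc
Of 20 sites in all, 19 began before the start, and 1, in Atp6v0e, began 3 bases after it. For Lgmn the site belongs to 1 of its 2 listed starts.

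**Figure D2:**
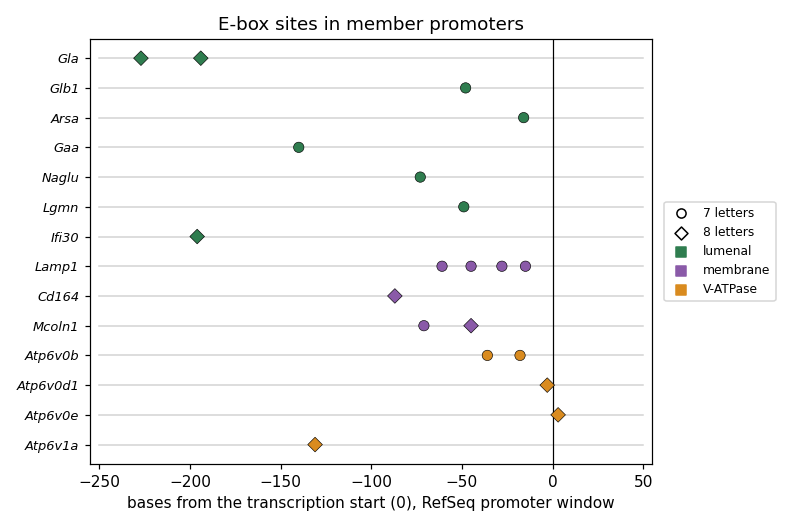
Positions of the E-box sites of 14 member promoters, in bases from the transcription start at 0, with circles for the 7-letter and diamonds for the 8-letter form and colours for the 3 classes. Of the 20 sites, 19 lie before the start, and Lamp1 alone has 4.

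Most lysosomal members stood somewhat higher in Tfam cKO than in WT, but none passed the test, which rests on 2 libraries per group. No member had a limma adjusted p below 0.05, where 0.0183% of all tested genes did. The lowest limma adjusted p of a member was 0.598. At an unadjusted limma p below 0.05 there were 4 members higher (Lgmn, Hexa, Atp6v1b2 and Atp6ap2) and 0 lower, against 5.01% of all tested genes higher and 1.19% lower. Each Tfam cKO library exceeded each WT library for 23 of the 44 members (52.3%), where 25.4% of all tested genes had that order. The opposite order was seen for 1 member, Manba, against 9.75% of all genes. Without WT 2, both Tfam cKO libraries exceeded WT 1 for 33 of 44 members (against 37.3% of all genes), and the members' median log2 fold change was 0.16 against 0.01 over all genes. Without WT 1, both exceeded WT 2 for 32 of 44 (against 55.8%), and the medians were closer, at 0.19 and 0.13. No member passed the limma test in either case. The median log2 fold change of the members was 0.16, against 0.07 over all tested genes, with a spread of 0.05 (SD between replicate libraries) of the members' median. By class the median was 0.16 for the 21 lumenal members, 0.10 for the 8 membrane proteins and 0.18 for the 15 V-ATPase genes. The spread of these medians was 0.05, 0.06 and 0.09 in that order. A positive fold change was seen in 20, 7 and 15 genes of these classes. Over all tested genes 65.2% were positive.

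How many members stood higher depended on how the libraries were scaled. Rescaling each library to the same total (TPM) shifted the median of all genes by −0.11, and quantile normalization by −0.08. After rescaling, each Tfam cKO library exceeded each WT library for 11 members, against 14.3% of all genes, and 31 of 44 had a positive fold change, against 43.2%. After quantile normalization it was 12 members, against 16.3%, with 30 positive, against 48.2%. The members' median was then 0.05 and 0.06. Its distance from the median of all genes was 0.09 as deposited, 0.08 after rescaling and 0.07 after quantile normalization. With a library left out it was 0.06 without WT 1, 0.15 without WT 2, 0.07 without Tfam cKO 1 and 0.15 without Tfam cKO 2. The median of the membrane proteins changed sign, to −0.02 under both. As a share of each library's total FPKM, the 45 members made up 0.578% of WT 1, 0.623% of WT 2, 0.657% of Tfam cKO 1 and 0.618% of Tfam cKO 2, so that on this measure WT 2 lay between the Tfam cKO libraries.

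**Figure D3:**
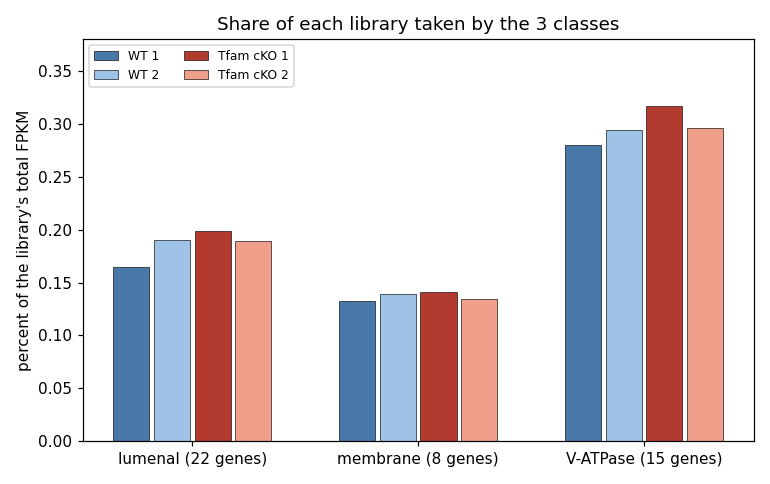
Percent of each library's total FPKM taken by the 22 lumenal, 8 membrane and 15 V-ATPase member genes, with 1 bar per library from 0. In each class Tfam cKO 1 is the highest bar, and WT 2 is at or above Tfam cKO 2 in the lumenal and membrane classes.

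The libraries did not contribute equally. Tfam cKO 1, which had the largest FPKM total, was the highest library for 24 of 44 members (54.5%, against 31.6% of all tested genes). Tfam cKO 2 was the highest for 10 (22.7%, against 25.4%). WT 1 was the lowest for 20 members (45.5%, against 21.7% of all genes) and WT 2 for 22 (50%, against 46%). Set against each other by number, Tfam cKO was above WT in both numbers for 30 members (68.2%, against 37.9% of all genes). It was below in both for 1 (2.27%, against 16.1%). For 9 members Tfam cKO was above only within the libraries numbered 1 (20.5%, against 14.8%). For 4 it was above only within those numbered 2 (9.09%, against 31.1%). The labels do not say that the numbers mark pairs. Gla, Grn and Atp6v0c owed most of their difference to the libraries numbered 1, with log2 differences of 0.70, 0.50 and 0.62 there and of 0.00, 0.04 and 0.13 within those numbered 2. Laptm4a and Lamp2 had the reverse pattern, with −0.20 and −0.10 in the first and 0.38 and 0.31 in the second. WT 2, the lowest library for Laptm4a and Lamp2, also had the lowest keratinocyte marker sum, whose part in these values was not tested.

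**Figure D4:**
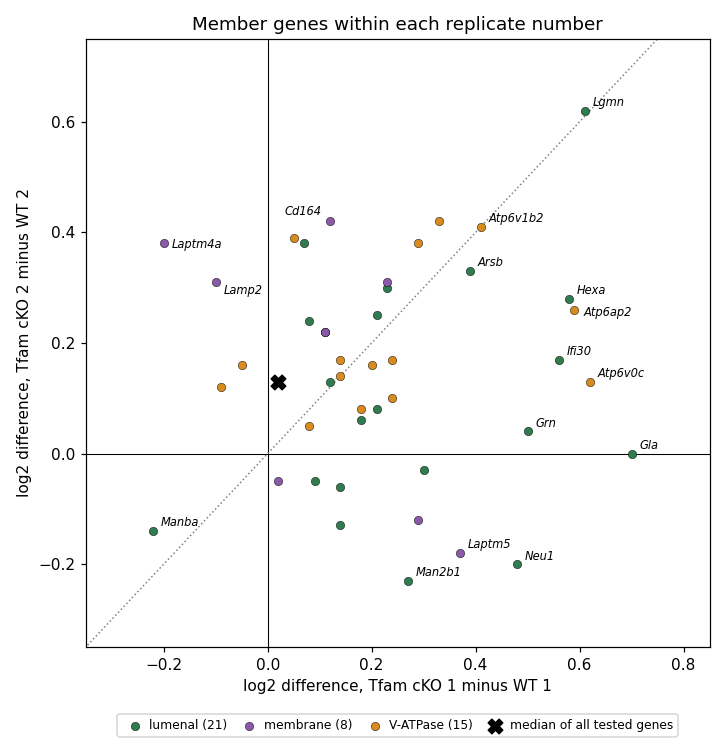
Log2 difference of FPKM + 1 between Tfam cKO and WT within the libraries numbered 1 (horizontal axis) and 2 (vertical axis) for the 44 tested members, coloured by class, with the median of all tested genes as a cross and the line of equal values dotted. Lgmn and Atp6v1b2 lie on the line, while Gla lies at 0.70 and 0.00.

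Among genes of protein and lipid breakdown and other lumenal proteins, all 7 had positive fold changes, with a median of 0.26, where 65.2% of all tested genes were positive. Of these, 6 had every Tfam cKO value above every WT value, against 25.4% of all tested genes. After rescaling to equal totals the median was 0.14, and 3 of the 7 had that order, against 14.3%. Lgmn encodes legumain, a protease that cuts after asparagine and takes part in antigen and cathepsin processing. Its level was 25.0 FPKM in WT 1 and 20.5 FPKM in WT 2, but 38.7 FPKM in Tfam cKO 1 and 32.2 FPKM in Tfam cKO 2. The groups did not overlap, and the distance between them exceeded that within either. Means were 22.8 ± 3.16 and 35.5 ± 4.62 FPKM (SD, n = 2 each), a ratio of 1.56 and the largest log2 fold change of any member (0.62, SE 0.19, limma adjusted p = 0.598). The log2 difference of Lgmn was 0.61 and 0.62 within the numbers, which are not stated to mark pairs. Its log2 fold change stayed between 0.48 and 0.75 under all 14 alternatives. The macrophage marker sum was also higher in both Tfam cKO libraries, with 3 defining markers at 0, and its part in the Lgmn values was not tested.

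Ifi30 had 97.8 and 132 FPKM in WT and 144.5 and 148 FPKM in Tfam cKO. Both Tfam cKO libraries were above WT, but the WT libraries lay farther apart than the nearest libraries of the groups (a limma log2 fold change of 0.36 with an SE of 0.21, adjusted p = 0.87). The cholesterol-binding protein gene Npc2 had 45.1 and 39.5 FPKM in WT and 53.0 and 48.8 FPKM in Tfam cKO. For Tpp1, a peptidase that cuts tripeptides off proteins, the libraries of a group were close as deposited. They had 18.3 and 18.1 FPKM in WT and 21.3 and 21.7 FPKM in Tfam cKO, yet the ratio of means was only 1.18. Grn (progranulin, ratio 1.21) and Ppt1 (a thioesterase that strips palmitate, ratio 1.13) had the same order of groups. Ppt1 overlaps the locus of the more abundant Cap1 in the files, so its value is uncertain. Lipa, the acid lipase that frees cholesterol from its esters, was the member whose groups overlapped, with 14.0 and 9.61 FPKM in WT and 14.9 and 11.6 FPKM in Tfam cKO.

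Of the 8 tested genes of sphingolipid degradation, all had positive fold changes, with a median of 0.14, and 4 had every Tfam cKO value above every WT value, against 25.4% of all tested genes. After rescaling to equal totals it was 1 of the 8, against 14.3%. Hexa, the alpha subunit of the hexosaminidase that degrades the ganglioside GM2, had 26.9 and 28.3 FPKM in WT and 40.6 and 34.6 FPKM in Tfam cKO. As deposited, the WT libraries were close and both Tfam cKO libraries were above them. The ratio of means was 1.36 (a limma log2 fold change of 0.43 with an SE of 0.17, adjusted p = 0.778). Psap, the most abundant of the list, had 172 and 162 FPKM in WT and 200 and 171 FPKM in Tfam cKO. Its groups overlapped, since WT 1 was above Tfam cKO 2 (a limma log2 fold change of 0.14 with an SE of 0.19, adjusted p = 0.959). Gla, the alpha-galactosidase whose loss causes Fabry disease, had 30.6 and 36.7 FPKM in WT and 50.2 and 36.8 FPKM in Tfam cKO, so that only Tfam cKO 1 stood clear. The acid ceramidase gene Asah1 had a ratio of means of 1.17 and the beta-galactosidase gene Glb1 one of 1.1, both without overlap. Neu1 (sialidase), Smpd1 (acid sphingomyelinase) and Arsa (arylsulfatase A) had overlapping groups and log2 fold changes of 0.14, 0.14 and 0.12.

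For glycan and glycogen degradation most values lay close to equality. The median log2 fold change of the 6 members was 0.02, and −0.09 after rescaling to equal totals. Arsb, a sulfatase of dermatan and chondroitin sulfate, was the member with the clearest difference, at 11.6 and 10.4 FPKM in WT and 15.5 and 13.3 FPKM in Tfam cKO (a limma log2 fold change of 0.36 with an SE of 0.17, adjusted p = 0.834). Its groups did not overlap. Manba, a beta-mannosidase, was the only member with every Tfam cKO value below every WT value, at 4.79 and 4.19 FPKM in WT and 3.96 and 3.72 FPKM in Tfam cKO (a limma log2 fold change of −0.18 with an SE of 0.17, adjusted p = 0.926). Its alpha-mannosidase counterpart Man2b1 had 16.8 and 22.3 FPKM in WT and 20.6 and 18.8 FPKM in Tfam cKO. Both Tfam cKO values fell between those of WT (a limma log2 fold change of 0.02 with an SE of 0.19, adjusted p = 0.996). The same held for Gaa (acid alpha-glucosidase, which digests glycogen), Gusb (beta-glucuronidase) and Naglu (a heparan sulfate hexosaminidase), with log2 fold changes of 0.00, 0.04 and 0.02.

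Among the membrane proteins, 3 of 8 (37.5%) had every Tfam cKO value above every WT value, against 25.4% of all tested genes, and 1 of 8 after rescaling, against 14.3%. Cd164, a sialomucin of endosomes and lysosomes, had 39.8 and 33.9 FPKM in WT and 43.4 and 45.8 FPKM in Tfam cKO (a limma log2 fold change of 0.27 with an SE of 0.17, adjusted p = 0.889). Lamp1 had 102 and 82.9 FPKM in WT and 120 and 103 FPKM in Tfam cKO. WT 1 and Tfam cKO 2 were nearly level for Lamp1, which separates the groups by less than the spread within each. The third was the cholesterol exporter Npc1, with a ratio of means of 1.13, whose locus in the files overlaps that of 3110002H16Rik. Laptm5 had 183 and 212 FPKM in WT and 237 and 187 FPKM in Tfam cKO, so the groups overlapped (a limma log2 fold change of 0.09 with an SE of 0.21, adjusted p = 0.977). Scarb2, the receptor that carries glucocerebrosidase to the lysosome, was nearly constant at 13.5 and 14.2 FPKM in WT and 13.7 and 13.7 FPKM in Tfam cKO (a limma log2 fold change of −0.01 with an SE of 0.16, adjusted p = 0.996). Lamp2, Laptm4a and Mcoln1 had log2 fold changes of 0.10, 0.09 and 0.08, with overlapping groups. Without WT 1 the median of the 8 was 0.22, beside 0.13 for all genes.

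All 15 V-ATPase genes had positive fold changes as deposited, and 12 of 15 after rescaling to equal totals. Tfam cKO lay above WT without overlap for 9 of them, against 25.4% of all tested genes, and for 5 after rescaling, against 14.3%. The median of the 15 was 0.27 without WT 1 and 0.09 without WT 2, beside 0.13 and 0.01 for all genes. In the V0 sector, Atp6v0c had 237 and 262 FPKM in WT and 365 and 287 FPKM in Tfam cKO (a limma log2 fold change of 0.37 with an SE of 0.21, adjusted p = 0.869). Both Tfam cKO libraries were higher, Tfam cKO 1 the more so. A pseudogene, Atp6v0c-ps2, overlaps the Atp6v0c locus in the files and was listed at 8.39 FPKM in Tfam cKO 2 and below 0.01 in the other libraries, so reads may have been divided between them. Atp6v0a1 had tight groups as deposited, with 8.02 and 7.85 FPKM in WT and 9.33 and 8.92 FPKM in Tfam cKO. Atp6v0d1, the subunit that links the ring to the central stalk, had a ratio of means of 1.13 without overlap. For Atp6v0b and Atp6v0e, small membrane subunits, the groups overlapped, with log2 fold changes of 0.02 and 0.13.

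The V1 sector had a median log2 fold change of 0.22, and 4 of 8 genes had every Tfam cKO value above every WT value, against 25.4% of all tested genes. After rescaling to equal totals the median was 0.10, and 3 of 8 had that order, against 14.3%. Atp6v1b2, the B subunit that alternates with the catalytic A subunit, had 19.8 and 21.1 FPKM in WT and 26.6 and 28.5 FPKM in Tfam cKO. As deposited, both groups were tight and well apart, with means of 20.5 ± 0.920 and 27.5 ± 1.33 FPKM (SD, n = 2 each). The limma log2 fold change was 0.41 with an SE of 0.16 (adjusted p = 0.771). After rescaling to equal totals, the libraries within each group lay farther apart than the nearest libraries of the groups. The log2 difference was 0.41 within each number, though the numbers are not stated to mark pairs, and 0.30 after rescaling. Atp6v1a had 29.5 and 23.8 FPKM in WT and 36.3 and 31.4 FPKM in Tfam cKO. For Atp6v1c1, whose product holds the stator of the pump, the values were 14.9 and 11.8 FPKM in WT and 18.9 and 16.1 FPKM in Tfam cKO. Atp6v1h, the regulatory H subunit, had a ratio of means of 1.17. Atp6v1f, the most abundant V1 gene, had 139 and 127 FPKM in WT and 134 and 142 FPKM in Tfam cKO, with overlapping groups (a limma log2 fold change of 0.05 with an SE of 0.18, adjusted p = 0.988). Atp6v1d, Atp6v1e1 and Atp6v1g1 overlapped as well, with log2 fold changes of 0.21, 0.15 and 0.06. The sign for Atp6v1f and Atp6v1g1 turned after rescaling, to −0.07 and −0.06.

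Both accessory genes had every Tfam cKO value above every WT value, against 25.4% of all tested genes. After rescaling to equal totals 1 of the 2 did, against 14.3%. Atp6ap2, also known as the prorenin receptor, had 59.2 and 61.8 FPKM in WT and 89.7 and 73.9 FPKM in Tfam cKO (a limma log2 fold change of 0.42 with an SE of 0.18, adjusted p = 0.804). As deposited, WT libraries were close, and the Tfam cKO libraries were both higher but apart from each other. Atp6ap1 differed less, with 57.4 and 53.3 FPKM in WT and 63.2 and 58.9 FPKM in Tfam cKO.

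**Figure D5:**
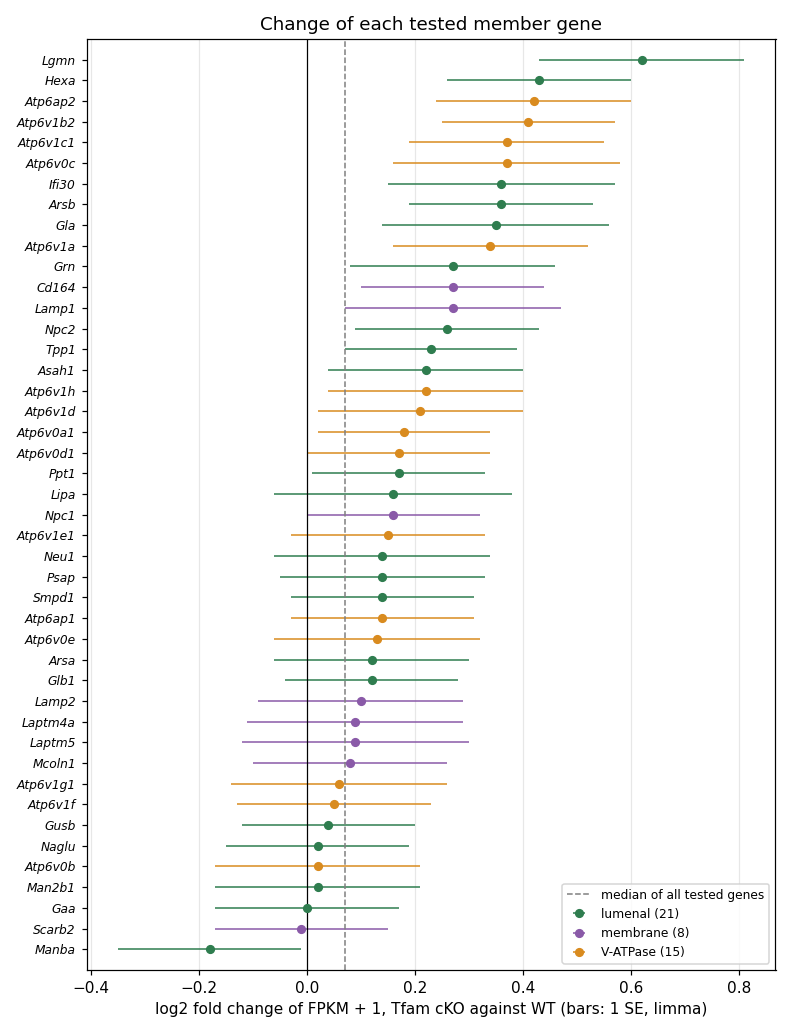
Limma log2 fold change of FPKM + 1, Tfam cKO against WT, for the 44 tested members in order of size, with bars of 1 SE, colours for the classes and a dashed line at the median of all tested genes. Values run from −0.18 for Manba to 0.62 for Lgmn, and no member passed the test.

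Members with and without an E-box in the promoter had the same median log2 fold change, 0.15 in the 14 with CACGTG and 0.15 in the 24 without that were tested. Levels were alike too, with median FPKM of 34.4 and 33.4. The 7 members with the palindrome TCACGTGA, shown above, had a median of 0.27, between 0.08 for Mcoln1 and 0.36 for Ifi30, and the other 31 had one of 0.14. After rescaling to equal totals these medians were 0.15 and 0.03. The split was chosen after the values had been seen, has no test, and leaves out the 6 members without a promoter sequence.

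Other genes of the lysosome were examined from lists that hold no member. None of the genes in these lists passed the limma test over all genes in the fit without a replicate block. In all tested genes, 25.4% had every Tfam cKO value above every WT value and 9.75% below. After rescaling to equal totals 14.3% were above, and 2161 of the 10910 were below. Of 24 other hydrolases, 11 (45.8%) were above in this sense and 3 below, with a median log2 fold change of 0.11. After rescaling 9 were above and 4 below, with a median of 0.02. Of 17 tested membrane proteins and transporters, 8 were above and 0 below, with a median of 0.14. After rescaling 5 were above and 0 below, with a median of 0.06. The lysosomal tetraspanin Cd63 had the largest fold change of log2(FPKM + 1) in any of these lists as deposited, with 102 and 109 FPKM in WT and 226 and 164 FPKM in Tfam cKO (a limma log2 fold change of 0.86 with an SE of 0.21, adjusted p = 0.472). Isoforms and assembly factors of the V-ATPase had a median of 0.07, equal to that of all genes, with 3 of 9 above. After rescaling their median was −0.03, beside −0.04 for all genes, with 0 of 9 above. Rnasek, a small protein tied to the V-ATPase, had 146 and 171 FPKM in WT and 186 and 177 FPKM in Tfam cKO, and the assembly factor Tmem199 had 8.15 and 4.75 against 4.50 and 5.74 FPKM.

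Genes for the delivery of hydrolases had a median of 0.14, with 5 of 12 above and 1 below, against 25.4% and 9.75% of all tested genes. After rescaling 4 were above and 2 below, with a median of 0.03. M6pr, the small mannose 6-phosphate receptor, overlapped between groups at 72.8 to 89.5 FPKM. Igf2r, the large receptor of the same route, had 2.58 and 2.71 FPKM in WT and 3.49 and 4.55 FPKM in Tfam cKO (a limma log2 fold change of 0.46 with an SE of 0.19, adjusted p = 0.783). In the list of TFEB, its relatives and their regulators, all 6 tested genes had every Tfam cKO value above every WT value, against 25.4% of all tested genes, and 4 of 6 did after rescaling to equal totals, against 14.3%, with medians of 0.36 and 0.25. Tfeb had 14.2 and 16.8 FPKM in WT and 19.5 and 19.6 FPKM in Tfam cKO. Fnip2, a partner of folliculin, had 3.07 and 3.31 FPKM in WT and 6.31 and 6.59 FPKM in Tfam cKO. The groups were far apart for their spread, the log2 fold change after rescaling was above that of Cd63, at 0.82 against 0.74, and Fnip2 still did not pass (a limma log2 fold change of 0.83 with an SE of 0.16, adjusted p = 0.292). Fnip1, also a folliculin partner, had 18.3 and 17.4 FPKM in WT and 22.5 and 25.3 FPKM in Tfam cKO (a limma log2 fold change of 0.40 with an SE of 0.16, adjusted p = 0.792).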

How the data were processed

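Trizol RNA of Langerhans cells sorted from the epidermis was used for NEBNext Ultra libraries, per the labels' protocols, which do not say whether strand was kept. Each library has its own deposited table of FPKM with 95% intervals, which per the file headers the authors obtained with Cufflinks. The submitters' processing notes name CASAVA, Cufflinks and mm10 and give no versions. Aligner and annotation: not given in the sources used here. In the tables, 5 of 45 member positions overlap the RefSeq position of the gene in GRCm38.p6, so gene positions are not printed, and promoter coordinates are those of RefSeq.

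FPKM of a symbol's loci were summed, the 10910 of 24441 symbols that averaged 1 FPKM or more were kept, and log2(FPKM + 1) was tested in limma 3.58.1 (R 4.3.3) on genotype alone, with a mean trend, two-sided, and Benjamini-Hochberg adjustment at 0.05. Fold changes of low genes are understated on this scale. Effective fragments are the squared ratio of FPKM to its standard error, with 2 standard errors on each side of the interval. They describe error within a library and not the spread between libraries. All members are named. Full values go to the member of highest level and of largest positive and negative change in each of 7 role lists and, in each other list, to the gene of highest level and of largest change. Some genes this rule picks in the other lists are not reported here. Other genes with values were chosen after these were seen. Members and lists were chosen with earlier results of these data known. Figures were drawn with matplotlib 3.10.9 (Python 3.11.15).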

Additional observations from a re-analysis of the deposited data

How the results depend on the processing

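The 14 alternatives were TPM, quantile normalization, the replicate block, robust moderation, variances without a trend, a pseudocount of 0.1 or 5, no filter or one at 5 FPKM, the highest locus of a symbol, and each library left out. Members past the threshold numbered 0 in each of them. Over all genes the count was 2, against 0 with no low-value filter, 1 with a mean of at least 5 FPKM, 1 with a pseudocount of 5, 5 with robust moderation, and 16 to 82 with a library left out, where the spread of the lone library is taken from the other group. With the replicate block it was 184, none of them a member (lowest limma adjusted p = 0.0543, for Lgmn) and 1 each among the other hydrolases, the other membrane proteins and the TFEB list. The numbers are not stated to pair libraries, and deviations from the group means of same-numbered libraries correlated with r = 0.26 across 10910 genes, which are not independent.

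Members for which each Tfam cKO library exceeded each WT library numbered 12 after quantile normalization and 11 after TPM, against 23. The members' median moved to 0.06 and 0.05 there, and lay between 0.14 and 0.23 with a library left out. The lumenal median was 0.07 after quantile normalization, 0.05 after TPM and 0.22 with the filter at 5 FPKM, and 0.14 to 0.24 with a library left out. The V-ATPase median was 0.07 after TPM and 0.09 to 0.27 with a library left out. The membrane median was −0.02 after quantile normalization and after TPM, and 0.12 to 0.22 with a library left out. Of the 14 genes given in full, 5 changed sign somewhere, none of them called. After quantile normalization the log2 fold change was −0.05 for Atp6v1f, −0.08 for Laptm5, −0.09 for Man2b1 and −0.002 for Psap. After TPM it was −0.07 for Atp6v1f, −0.03 for Laptm5 and −0.10 for Man2b1. With a library left out it ranged from −0.01 to 0.12 for Atp6v1f, from −0.08 to 0.26 for Laptm5, from −0.17 to 0.21 for Man2b1 and from −0.05 to 0.02 for Scarb2. The causes were not tested. With 2 libraries per group, differences of the size seen here could not be separated from the spread between libraries.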
